A study of Mus musculus with 12 samples.

Results

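The 41 genes described here are interferon-stimulated genes (ISGs), genes whose transcription interferons are known to raise. They are given by name and make up 41 of the 14323 gene symbols counted in the table. Type I interferons bind IFNAR1 and IFNAR2 and act through the kinases JAK1 and TYK2 on a complex that holds STAT2 and IRF9 and binds the interferon-stimulated response element (ISRE). Interferon gamma, which activated CD8+ T cells themselves secrete, acts through its own receptor and through gamma-activated sites (GAS) in DNA. The products sense foreign nucleic acid, block viral replication, attack the vacuoles of intracellular parasites, or feed back on the pathway itself.

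The sequencing was done to find the pathways that act downstream of LAIR-1, an inhibitory receptor for collagens, in T cells. Spleens of 3 adult wild type C57BL/6N mice gave the naive CD8+ T cells, which were isolated by sorting, and 100000 cells were cultured per well for 6 h. Wells were coated with 2.5 µg/ml anti-CD3ε (clone 145-2C11), which triggers the T cell receptor complex, or had no anti-CD3. For wells without it the labels read iso in its place, and the paper does not say what these wells held instead. The coating also held 2C7, an antibody that activates LAIR-1, at 2.5 µg/ml, or an isotype control. Wells without anti-CD3 are called unstimulated isotype or unstimulated anti-LAIR-1 here, and wells with it anti-CD3 isotype or anti-CD3 anti-LAIR-1. Each of these 4 groups has 3 libraries, 1 from each mouse. Messenger RNA was counted from its 3′ end by CEL-seq. Library totals ran from 1781218 to 7725545 counts, with group medians of 2304214, 3548881, 4883760 and 6204054 in the order just given, so the group medians were higher with anti-CD3, although anti-CD3 isotype library 1, at 3478294, was below the 3 unstimulated anti-LAIR-1 libraries. Levels are counts per 1000000 after TMM scaling (CPM), and values in a sentence are given for mice 1, 2 and 3 in that order. A level of 3 counts was worth between 0.404 and 1.61 CPM, depending on the library.

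The libraries carried the transcripts of CD8+ T cells. The summed level of 9 of the 10 listed naive CD8 T cell markers (Cd3d, Cd3e, Cd3g, Cd8a, Cd8b1, Ccr7, Lef1, Tcf7 and Il7r) lay between 4376 and 5059.6 CPM without anti-CD3, between 1649 and 1779 CPM with anti-CD3 and isotype, and between 2049 and 2307 CPM with anti-CD3 and anti-LAIR-1. Of these 9, Lef1 was the most abundant without anti-CD3, at a mean of 1192 ± 81.5 CPM (SD) in unstimulated isotype cells, and Cd8a lay between 319 and 444 CPM in the 12 libraries. Cd4 did not pass 1.63 CPM and was at 0 in the anti-CD3 isotype group, and the 3 listed CD4 T cell markers together reached 4.84 CPM at most, mainly from Foxp3. The 2 NK cell markers in the table, Klrb1c and Tyrobp, summed to 0.661 CPM or less, with 0 counts in 8 libraries. B cell markers, 5 of 7 in the table, summed to between 5.74 and 17.9 CPM, with Cd74 and Cd79b the most abundant and Ms4a1 at 0.538 CPM or less. For anti-CD3 with isotype 2 of them could be tested, 1 higher (log2 fold change 0.88) and 1 lower (-2.29). Under anti-LAIR-1, 2 could be tested, 1 lower (-1.90) and 1 not called (-0.27). Plasmacytoid dendritic cell markers, 3 of 5 in the table, summed to between 1.06 and 6.14 CPM, mostly Tcf4. Monocyte or macrophage markers, 5 of 7 in the table, summed to between 49.5 and 64.1 CPM without anti-CD3 and between 29.3 and 44.9 CPM with it. Cst3, which many cell types express, made up most of that sum, while Csf1r was at 0 in 11 of the 12 libraries. None of the 3 neutrophil or 4 erythroid markers was in the table. Of the 12 T cell activation genes, 11 could be tested and all 11 were higher with anti-CD3 in both antibody settings. The mitochondrial share of counts also moved with anti-CD3, from between 17.6% and 20.9% to between 11.5% and 13.2%. The part of these shifts in the levels of the 41 genes was not tested.

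Anti-CD3 for 6 h split the ISGs into a larger set that fell and a smaller set that rose. With isotype, 26 of the 41 genes had enough counts to test: 6 rose and 17 fell at an adjusted p under 0.05, and 3 passed in neither direction. Over all 8690 genes tested, 35.3% rose and 36.1% fell. The median log2 fold change was -0.75 for the 26 genes and -0.03 for all genes, and 8 of 26 were above 0 against 49.1% of all genes. The same stimulus under anti-LAIR-1 was tested on the other 6 libraries, and there 6 of 28 genes rose and 17 fell, where 36.4% and 36.3% of 9000 genes did. The medians were -0.69 and -0.04, and 8 of 28 were above 0 against 48.8%. These 2 comparisons use the same mice but no library in common. Bst2, Gbp2, Ifi47, Igtp and Irgm1 rose in both, which is 5 of the 6 that rose in each, and 15 genes fell in both, out of 17 in each. The share of all genes called the same way in both is not given here, so this overlap is not compared with it. With DESeq2 and a block for the mouse, 11 of the genes fell under anti-LAIR-1 in place of 17. Unless another tool is named, p-values come from the quasi-likelihood test of edgeR and were adjusted by Benjamini-Hochberg over all genes tested. In bulk RNA, fewer cells expressing a gene and less RNA of that gene per cell cannot be told apart.

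In activated cells 4 ISGs were higher with anti-LAIR-1 than with isotype, and in resting cells none passed the test. These were Rtp4, Samd9l, Zbp1 and Trim30a, 4 of 25 genes tested in the presence of anti-CD3, where 3.9% of 8800 genes were higher. None of the 25 was lower by edgeR, against 1.86% of all genes, none was lower at an unadjusted p under 0.05, and DESeq2 called 0 lower. At an unadjusted p under 0.05, 12 of 25 genes were higher, and 18.8% of all genes passed that level in either direction. The median was 0.34 against 0.00 over all genes, and 22 of 25 were above 0 against 50.6%. With a block for the mouse, 7 genes were called higher in place of 4, the additional ones being Gbp2, Irf1 and Parp9. The count was also 7 without anti-CD3 isotype library 3, 10 with no filter on low counts, and 1 with DESeq2 and the block. In the same comparison 6 of the 9 naive CD8 T cell markers were higher, namely Cd3d, Cd3e, Cd3g, Lef1, Tcf7 and Il7r. Of the 11 T cell activation genes tested 3 were lower, Il2, Il2ra and Ifng, of which Il2 and Il2ra are named after their values were seen. The part of these shifts in the anti-LAIR-1 results was not tested. Without anti-CD3, 0 of 29 genes passed in either direction by edgeR or by DESeq2. The edgeR share was 0% higher and 0% lower over 8770 genes. Samd9l, Rtp4 and Trim30a, 3 of the 29, had an unadjusted p under 0.05, all with higher values under anti-LAIR-1, and 4.38% of all genes passed that level in either direction. The anti-CD3 isotype libraries serve in both the anti-CD3 and the anti-LAIR-1 comparison, so the effects are given side by side without reading one against the other. Whether the anti-LAIR-1 effect differed with and without anti-CD3 was tested as an interaction over the 12 libraries. There edgeR called 0 of 29 genes in either direction and DESeq2 also 0, while 1.82% of 9223 genes were called with a positive and 0.249% with a negative interaction. At an unadjusted p under 0.05, 8 of the 29 passed, against 12.2% of all genes. The median interaction was 0.29 against 0.04 over all genes, and 24 of 29 were above 0 against 55%.

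**Figure D1:**
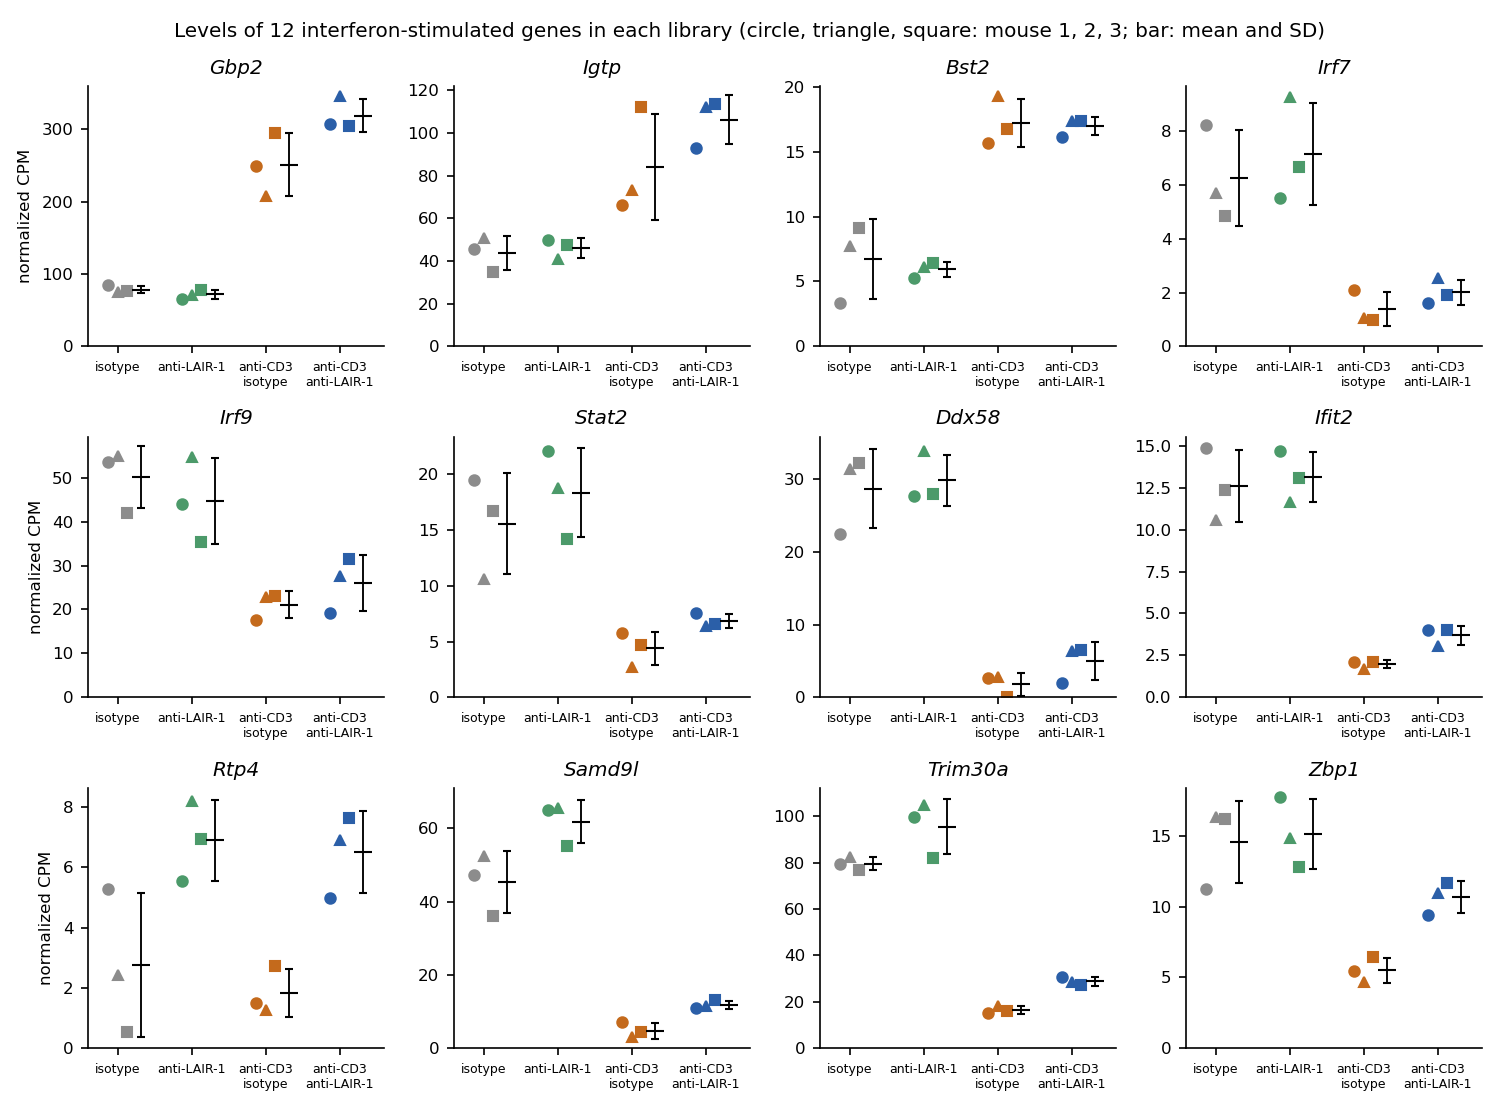
Level of 12 of the genes (y axis, normalized CPM from 0, own scale per panel) in each of the 12 libraries, by group on the x axis, with 1 symbol per mouse and a bar for the mean and SD of 3. The 3 libraries with both antibodies are the highest for Gbp2, at 304 to 346 CPM, while for Samd9l and Trim30a every stimulated library lies below every unstimulated one.

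Summed over the 41 genes, the level was higher with anti-CD3 and anti-LAIR-1 than with anti-CD3 and isotype in each of the 3 mice, with overlap between the groups. The sum was 1122, 1228 and 1158 CPM in unstimulated isotype cells, 1194, 1245 and 1172 CPM in unstimulated anti-LAIR-1 cells, 1027, 1041 and 1234 CPM in anti-CD3 isotype cells, and 1229.7, 1384 and 1320.3 CPM in anti-CD3 anti-LAIR-1 cells. The first 3 groups overlap, and the lowest anti-CD3 anti-LAIR-1 library lies above 7 of the other 9. With library totals alone the group means were 1222, 1254, 1052 and 1260.1 CPM in the same order. The sum was not tested. Ifi47 and Gbp2 together made up between 23.5% and 28.3% of the sum in the unstimulated libraries and between 47.7% and 54.1% in the stimulated ones. At the other end, 12 genes were never tested because they had too few counts in every comparison: Isg15, Ifi44, Ifih1, Mx1, Oas1a, Oas2, Oas3, Oasl1, Oasl2, Usp18, Rsad2 and Cmpk2. They held 375 counts over the 12 libraries, 0.609% of those of the 41 genes, and none of them passed 11 counts or 3.67 CPM in a library. The other 29 passed the filter in at least 1 comparison and 24 in all 5. Reads without a unique best alignment did not enter the counts, so the levels of genes with close relatives, such as Ifit3, Trim30a, Oas1a and the Gbp genes, are uncertain. Counts are of 3′ ends, and where a gene is called the most abundant of a list, or a share of counts is given, this refers to these counts.

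The 4 transcription factors among the genes, Irf1, Irf7, Irf9 and Stat2, all fell with anti-CD3 and isotype, and 3 of the 4 fell under anti-LAIR-1, where 36.1% and 36.3% of all genes fell. Stat2, a signal transducer of the type I interferon receptor, was at 19.5, 10.6 and 16.7 CPM in unstimulated isotype cells and at 22.1, 18.8 and 14.2 CPM in unstimulated anti-LAIR-1 cells. With anti-CD3, Stat2 was at 5.74, 2.75 and 4.66 CPM under isotype and at 7.54, 6.41 and 6.56 CPM under anti-LAIR-1. Each stimulated library lay below each unstimulated one. For Stat2 the anti-CD3 effect was a log2 fold change of -1.89 (SE 0.32, adjusted p 1.2e-05) with isotype and -1.42 (SE 0.22, adjusted p 1.1e-05) under anti-LAIR-1. Irf9, a DNA-binding subunit of the complex that STAT2 joins, was at 53.5, 55.0 and 42.0 CPM in unstimulated isotype cells and at 44.0, 54.8 and 35.3 CPM with anti-LAIR-1 alone. Anti-CD3 libraries held Irf9 at 17.5, 22.9 and 23.0 CPM with isotype and at 19.1, 27.7 and 31.5 CPM with anti-LAIR-1, again below all unstimulated libraries. Its log2 fold changes were -1.28 (SE 0.17, adjusted p 3.5e-07) and -0.80 (SE 0.18, adjusted p 5.2e-04).

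Irf7, the factor that amplifies type I interferon production, was low in every group. It was at 8.26, 5.70 and 4.84 CPM in unstimulated isotype cells, at 5.53, 9.27 and 6.68 CPM in unstimulated anti-LAIR-1 cells, at 2.11, 1.06 and 0.964 CPM with anti-CD3 and isotype, and at 1.62, 2.53 and 1.90 CPM with anti-CD3 and anti-LAIR-1. The stimulated values lay below all unstimulated ones. The log2 fold changes of anti-CD3 were -2.33 (SE 0.45, adjusted p 8.0e-05) and -1.84 (SE 0.35, adjusted p 9.9e-05). Irf1, a transcription factor that interferon gamma induces, was at 96.8, 129.5 and 107 CPM without stimulation and isotype and at 111, 131 and 125 CPM with anti-LAIR-1 alone. Under anti-CD3, Irf1 was at 76.7, 84.6 and 105 CPM with isotype and at 106, 122 and 115 CPM with anti-LAIR-1. The groups overlap in both settings. Its log2 fold change of -0.34 (SE 0.13, adjusted p 0.0248) with isotype passed the test narrowly, and the adjusted p was 0.155 without unstimulated isotype library 2, 0.167 without anti-CD3 isotype library 1 and 0.106 without anti-CD3 isotype library 2, and 0.112 with DESeq2, 0.0829 with no filter on low counts and 0.138 with DESeq2 and a block for the mouse. With 1 library left out, the Irf1 value with isotype ran from -0.46 to -0.22. Under anti-LAIR-1 the value was -0.11 (adjusted p 0.313), and with library totals alone it was -0.22 and called (adjusted p 0.0498). There it ran from -0.17 to -0.036 with 1 library left out. For anti-LAIR-1 in activated cells the 4 factors had log2 fold changes between 0.26 and 0.67, none of which passed the test. Over the alternatives, Irf9 ran from 0.11 to 0.46, Irf7 from 0.50 to 0.97 and Stat2 from 0.42 to 0.85, never called. Irf1 came closest, with 0.34 (adjusted p 0.0654), and was called higher with a block for the mouse (adjusted p 0.0311), with no filter on low counts (adjusted p 0.0107) and without anti-CD3 isotype library 3 (adjusted p 0.0137). Leaving out 1 library gave Irf1 values from 0.25 to 0.48.

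Among the sensors of nucleic acid, Ddx58 showed the lowest log2 fold change with isotype. Ddx58 encodes RIG-I, which detects viral RNA in the cytosol. It was at 22.5, 31.4 and 32.3 CPM in unstimulated isotype cells and at 27.7, 33.9 and 28.0 CPM in unstimulated anti-LAIR-1 cells. Under anti-CD3, Ddx58 was at 2.72, 2.75 and 0 CPM with isotype, so 1 library had no count, and at 2.02, 6.41 and 6.56 CPM with anti-LAIR-1. All stimulated libraries were far below all unstimulated ones, while the stimulated groups overlap. The log2 fold changes of anti-CD3 were -4.17 (SE 0.43, adjusted p 8.7e-09) and -2.65 (SE 0.27, adjusted p 5.0e-08). Over 13 alternatives the value with isotype ran from -4.81 to -3.37 and was called in each. The effect of anti-LAIR-1 in activated cells was 1.57 (adjusted p 0.185) and the interaction 1.50 (adjusted p 0.289), and both were called with no filter on low counts (adjusted p 0.00551 and 0.0264). Leaving out 1 library moved the effect to between 0.79 (without anti-CD3 isotype library 3) and 2.23 (without anti-CD3 isotype library 2), and the same libraries moved the interaction to between 0.72 and 2.18.

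Zbp1, a sensor of nucleic acid in the Z conformation that can trigger cell death, fell less and was higher with anti-LAIR-1. It was at 11.2, 16.3 and 16.1 CPM in unstimulated isotype cells and at 17.7, 14.8 and 12.8 CPM in unstimulated anti-LAIR-1 cells. Under anti-CD3, Zbp1 was at 5.43, 4.66 and 6.42 CPM with isotype and at 9.43, 11.0 and 11.6 CPM with anti-LAIR-1. The 3 anti-CD3 isotype libraries were the lowest of the 12, and the anti-CD3 anti-LAIR-1 libraries lay between them and the unstimulated anti-LAIR-1 ones without overlap. Anti-CD3 gave -1.40 (SE 0.28, adjusted p 1.2e-04) with isotype and -0.52 (SE 0.20, adjusted p 0.0292) under anti-LAIR-1. The latter adjusted p was 0.137 without unstimulated anti-LAIR-1 library 1, 0.0509 without unstimulated anti-LAIR-1 library 2, 0.126 without anti-CD3 anti-LAIR-1 library 1 and 0.0607 without anti-CD3 anti-LAIR-1 library 2, and 0.158 with DESeq2, 0.0973 with no filter on low counts and 0.277 with DESeq2 and a block for the mouse. Anti-LAIR-1 in activated cells gave 0.92 (SE 0.23, adjusted p 0.0243), higher in 3 of 3 mice. That adjusted p was 0.0561 without anti-CD3 isotype library 1, 0.104 without anti-CD3 isotype library 2, 0.0875 without anti-CD3 anti-LAIR-1 library 2 and 0.0829 without anti-CD3 anti-LAIR-1 library 3, and 0.0687 with DESeq2 and 0.275 with DESeq2 and a block for the mouse. The interaction was 0.85 (adjusted p 0.248). Of the remaining sensors, Ifih1, which encodes MDA5, was never tested and stayed at 3.26 CPM or less. Dhx58, which encodes their relative LGP2, was at 0.661, 3.26 and 3.77 CPM in unstimulated isotype cells and at 2.21, 3.44 and 2.67 CPM in unstimulated anti-LAIR-1 cells. With anti-CD3, Dhx58 was at 3.32, 2.12 and 1.28 CPM under isotype and at 1.08, 1.18 and 0.212 CPM under anti-LAIR-1. The groups overlap with isotype, where anti-CD3 gave -0.21 (adjusted p 0.758). The 3 anti-CD3 anti-LAIR-1 libraries lay below all unstimulated anti-LAIR-1 and all anti-CD3 isotype libraries, but Dhx58 had too few counts for a test of either difference. Its interaction was -1.47 (adjusted p 0.525).

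The IFIT proteins bind viral RNA and block its translation, and 1 of the 3 genes, Ifit2, could be tested in all 5 comparisons. It was at 14.9, 10.6 and 12.4 CPM in unstimulated isotype cells and at 14.7, 11.7 and 13.1 CPM in unstimulated anti-LAIR-1 cells. Under anti-CD3, Ifit2 was at 2.11, 1.69 and 2.09 CPM with isotype and at 4.04, 3.04 and 4.02 CPM with anti-LAIR-1. The stimulated libraries were all below the unstimulated ones, and the 3 with anti-LAIR-1 were above the 3 with isotype. Anti-CD3 gave -2.71 (SE 0.35, adjusted p 2.7e-07) with isotype and -1.83 (SE 0.25, adjusted p 2.8e-06) under anti-LAIR-1, and the anti-LAIR-1 effect in activated cells was 0.90 (adjusted p 0.177). Ifit1 was at 8.26, 4.07 and 1.08 CPM in unstimulated isotype cells, at 5.53, 4.50 and 3.74 CPM with anti-LAIR-1 alone, at 1.81, 1.69 and 1.45 CPM with anti-CD3 and isotype, and at 2.29, 1.18 and 3.39 CPM with both antibodies. Ifit3 was at 5.29, 3.26 and 2.69 CPM, 2.49, 3.71 and 3.21 CPM, 0.604, 2.12 and 1.12 CPM, and 1.08, 1.01 and 1.06 CPM in the same 4 groups. Both genes were lower in stimulated than in unstimulated cells under anti-LAIR-1, without overlap, but had too few counts for a test with isotype. Under anti-LAIR-1, anti-CD3 gave log2 fold changes of -1.04 (SE 0.39, adjusted p 0.0241) for Ifit1 and -1.56 (SE 0.44, adjusted p 0.00358) for Ifit3. The adjusted p of Ifit1 was 0.113 without unstimulated anti-LAIR-1 library 1, 0.0550 without unstimulated anti-LAIR-1 library 2, 0.0623 without anti-CD3 anti-LAIR-1 library 1 and 0.137 without anti-CD3 anti-LAIR-1 library 2, and 0.128 with DESeq2 and 0.184 with DESeq2 and a block for the mouse. That of Ifit3 was 0.116 with DESeq2 and a block for the mouse. The 5 genes of the oligoadenylate synthetase family were too low to test, with sums over the 5 genes between 0.423 and 8.55 CPM.

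In the ISG15 system and among the ubiquitin ligases, the ligases were well counted and fell with anti-CD3, while the modifier was close to the limit of counting. Isg15, the ubiquitin-like modifier, was at 1.32, 2.04 and 1.61 CPM in unstimulated isotype cells, at 2.77, 1.06 and 1.60 CPM in unstimulated anti-LAIR-1 cells, at 1.51, 1.27 and 0.321 CPM with anti-CD3 and isotype, and at 0.673, 1.52 and 0.635 CPM with anti-CD3 and anti-LAIR-1. Usp18, which removes ISG15 and restrains IFNAR signalling, was at 1.65, 2.44 and 3.23 CPM, 1.66, 2.38 and 1.07 CPM, 0, 0.635 and 0.321 CPM, and 0.269, 0.337 and 0.635 CPM in the same groups. Neither gene had enough counts for a test. The groups overlap for Isg15, while for Usp18 every stimulated library lay below every unstimulated one, with 5 and 7 counts per stimulated group against 17 and 19. Trim30a, a restriction factor of the TRIM family, was at 79.3, 82.3 and 76.9 CPM in unstimulated isotype cells and at 99.6, 105 and 82.0 CPM in unstimulated anti-LAIR-1 cells. Under anti-CD3, Trim30a was at 15.1, 18.4 and 15.9 CPM with isotype and at 30.7, 28.7 and 27.1 CPM with anti-LAIR-1. Stimulated and unstimulated libraries were far apart, and among the stimulated ones each anti-LAIR-1 library lay well above each isotype library. Anti-CD3 gave -2.30 (SE 0.15, adjusted p 1.5e-12) with isotype and -1.73 (SE 0.12, adjusted p 1.6e-10) under anti-LAIR-1. Anti-LAIR-1 in activated cells gave 0.80 (SE 0.15, adjusted p 0.00332), higher in 3 of 3 mice and under all 14 alternatives. Without anti-CD3 its value was 0.26 (adjusted p 0.997), and the interaction was 0.54 (adjusted p 0.148).

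Dtx3l, a ubiquitin ligase that works in a complex with PARP9, had means of 71.0 ± 9.88 CPM (SD, n = 3) in unstimulated isotype, 77.9 ± 10.2 CPM in unstimulated anti-LAIR-1, 28.2 ± 7.14 CPM in anti-CD3 isotype and 38.3 ± 2.60 CPM in anti-CD3 anti-LAIR-1 cells. It fell with anti-CD3 in both settings, with log2 fold changes of -1.35 (adjusted p 1.4e-07) and -1.03 (adjusted p 2.4e-07). The anti-LAIR-1 effect in activated cells was 0.43 (adjusted p 0.127) and was called with no filter on low counts (adjusted p 0.0457) and without anti-CD3 isotype library 2 (adjusted p 0.0203), with values from 0.31 to 0.65 when 1 library was left out. Trim25, the ligase that ubiquitinates RIG-I, fell less, by log2 fold changes of -0.68 (adjusted p 1.9e-05) and -0.77 (adjusted p 3.6e-06), from means of 105 ± 11.1 CPM and 109 ± 12.1 CPM to 67.2 ± 0.912 CPM and 64.4 ± 7.33 CPM. Its anti-LAIR-1 effect in activated cells was -0.07 (adjusted p 0.771). The poly-ADP-ribose polymerase gene Parp9 had means of 20.4 ± 8.52 CPM and 15.6 ± 1.56 CPM in the unstimulated isotype and anti-LAIR-1 groups and of 5.74 ± 1.68 CPM and 10.4 ± 3.32 CPM in the anti-CD3 isotype and anti-LAIR-1 groups. Anti-CD3 gave -1.79 (adjusted p 1.3e-05) with isotype and -0.63 (adjusted p 0.0192) under anti-LAIR-1, where the adjusted p was 0.0725 without unstimulated anti-LAIR-1 library 1, 0.139 without anti-CD3 anti-LAIR-1 library 1 and 0.0634 without anti-CD3 anti-LAIR-1 library 2, and 0.0996 with DESeq2 and 0.158 with DESeq2 and a block for the mouse. With 1 library left out, the anti-CD3 value of Parp9 under anti-LAIR-1 ran from -0.86 to -0.40. For anti-LAIR-1 in activated cells Parp9 had 0.78 (adjusted p 0.122), and it was called higher with a block for the mouse (adjusted p 0.0495) and with no filter on low counts (adjusted p 0.0380), with values from 0.53 to 1.07 when 1 library was left out. Parp14, its macrodomain-bearing relative, had -0.83 (adjusted p 0.0142) and -0.76 (adjusted p 0.00246) for anti-CD3. With isotype the groups overlap for Parp14, and the adjusted p was 0.148 without unstimulated isotype library 2 and 0.0569 without anti-CD3 isotype library 1, and 0.0794 with DESeq2 and 0.196 with DESeq2 and a block for the mouse. With 1 library left out, the Parp14 value with isotype ran from -1.09 to -0.54. Under anti-LAIR-1 its adjusted p was 0.0743 with DESeq2 and a block for the mouse.

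Most of the GTPases tested rose. They attack the vacuoles of intracellular pathogens and answer mainly to interferon gamma. Of the 6 tested, 4 rose with anti-CD3 and isotype, where 35.3% of all genes did, and 5 rose under anti-LAIR-1, where 36.4% did. The 2 not called with isotype were Gbp3 and Gbp7, and Mx1 was not tested. In both settings 0 fell by edgeR, by DESeq2 or at an unadjusted p under 0.05, while by edgeR 36.1% and 36.3% of all genes fell. Gbp2, a guanylate-binding protein, was at 84.2, 75.4 and 75.9 CPM in unstimulated isotype cells and at 65.8, 71.5 and 78.3 CPM in unstimulated anti-LAIR-1 cells. Under anti-CD3, Gbp2 was at 249, 208 and 295 CPM with isotype and at 307, 346 and 304 CPM with anti-LAIR-1. All 6 stimulated libraries were far above all 6 unstimulated ones, and the anti-CD3 anti-LAIR-1 libraries were the highest 3. Anti-CD3 gave 1.64 (SE 0.12, adjusted p 3.8e-11) with isotype and 2.14 (SE 0.09, adjusted p 1.6e-13) under anti-LAIR-1. The anti-LAIR-1 effect in activated cells was 0.34 (SE 0.10, adjusted p 0.0555), and it was called higher under 7 of 14 alternatives, over which the adjusted p ran from 0.00117 to 0.249. These were no filter on low counts (adjusted p 0.00117), at least 10 counts in every library (0.0473), a block for the mouse (0.0464), all 12 libraries in 1 fit (0.0464), library totals alone (0.0431), DESeq2 (0.0433) and leaving out anti-CD3 isotype library 3 (0.0103). With 1 library left out the effect on Gbp2 ran from 0.21 to 0.47. The interaction was 0.48 (adjusted p 0.157), and without anti-CD3 isotype library 3 it was called (adjusted p 0.0418).

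The immunity-related GTPases followed the same direction with smaller changes. Igtp, also known as Irgm3, was at 45.6, 50.9 and 35.0 CPM in unstimulated isotype cells and at 49.8, 40.8 and 47.5 CPM in unstimulated anti-LAIR-1 cells. Under anti-CD3, Igtp was at 66.1, 73.2 and 112 CPM with isotype and at 92.9, 112 and 114 CPM with anti-LAIR-1. No stimulated library overlapped an unstimulated one, and anti-CD3 isotype library 3 reached the level of the anti-LAIR-1 libraries. The log2 fold changes of anti-CD3 were 0.90 (SE 0.18, adjusted p 8.1e-05) and 1.20 (SE 0.11, adjusted p 1.6e-08). For anti-LAIR-1 in activated cells it was 0.31 (adjusted p 0.257), called higher with no filter on low counts (adjusted p 0.0348) and without anti-CD3 isotype library 3, where it was 0.58 (adjusted p 0.00773). It was 0.18 without anti-CD3 isotype library 1 (adjusted p 0.592), the lowest of the values with 1 library left out. Irgm1, a regulator of the other members of the family, was at 6.61, 6.92 and 2.15 CPM in unstimulated isotype cells and at 8.85, 4.50 and 6.68 CPM in unstimulated anti-LAIR-1 cells. Under anti-CD3, Irgm1 was at 13.9, 12.3 and 13.2 CPM with isotype and at 15.1, 18.1 and 15.2 CPM with anti-LAIR-1, above every unstimulated library. Its log2 fold changes were 1.21 (SE 0.31, adjusted p 0.00148) and 1.27 (SE 0.24, adjusted p 9.5e-05). Ifi47, which encodes IRG-47, had the smallest rise of the called GTPases with isotype, from 233, 233 and 229 CPM in unstimulated isotype cells to 291, 301 and 373 CPM with anti-CD3. In anti-LAIR-1 wells, Ifi47 was at 215, 222 and 210.5 CPM without and at 328, 362 and 325 CPM with anti-CD3. Again no library of one state overlapped the other. The values were 0.44 (SE 0.10, adjusted p 5.0e-04) and 0.64 (SE 0.08, adjusted p 4.1e-07).

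Gbp7 passed the test in 1 of the settings and Gbp3 in neither. Gbp7 had means of 31.6 ± 4.86 CPM and 31.7 ± 7.66 CPM (SD, n = 3) in the unstimulated isotype and anti-LAIR-1 groups and of 34.9 ± 8.27 CPM and 41.7 ± 5.11 CPM in the anti-CD3 groups. Its value with isotype was 0.12 (adjusted p 0.565). Under anti-LAIR-1 it rose by a log2 fold change of 0.38 (adjusted p 0.0384) with overlapping groups, and the adjusted p was 0.108 without unstimulated anti-LAIR-1 library 1, 0.196 without unstimulated anti-LAIR-1 library 3, 0.0786 without anti-CD3 anti-LAIR-1 library 2 and 0.0992 without anti-CD3 anti-LAIR-1 library 3, and 0.0625 with at least 10 counts required in every library, 0.0848 with DESeq2 and a block for the mouse and 0.139 with library totals alone. With 1 library left out, the Gbp7 value under anti-LAIR-1 ran from 0.24 to 0.58. Gbp3 ranged from 1.98 to 8.89 CPM over the 12 libraries, with 0.70 (adjusted p 0.115) for anti-CD3 with isotype and 0.30 (adjusted p 0.279) under anti-LAIR-1. Mx1, a dynamin-like GTPase that blocks influenza virus, was never tested. It was at 0, 0.815 and 1.61 CPM in unstimulated isotype cells, at 0, 0 and 0.267 CPM in unstimulated anti-LAIR-1 cells, at 0, 0.212 and 0.321 CPM with anti-CD3 and isotype, and at 0.269, 0 and 1.06 CPM with anti-CD3 and anti-LAIR-1, with 5 libraries at 0. None of the 6 tested GTPases was called for anti-LAIR-1 in activated cells by edgeR, where 3.9% of all genes were higher and 1.86% lower. There Gbp2 and Igtp had an unadjusted p under 0.05 and DESeq2 called 1, Gbp2 (adjusted p 0.0433).

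**Figure D2:**
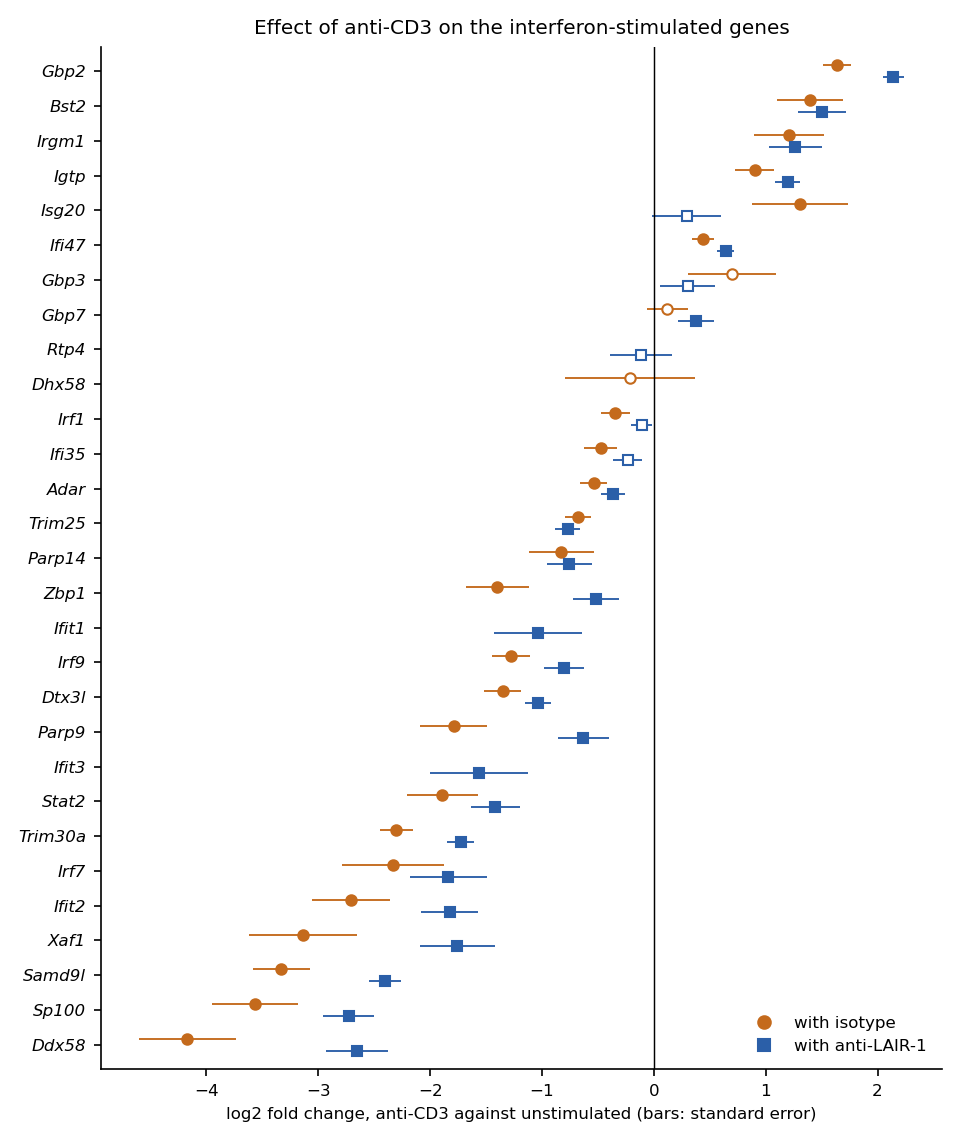
Log2 fold change of anti-CD3 against unstimulated cells (x axis) for each gene tested (y axis), with isotype as circles and under anti-LAIR-1 as squares, bars showing the standard error, and filled symbols an edgeR adjusted p under 0.05. Values with isotype run from -4.17 for Ddx58 to 1.64 for Gbp2.

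The 11 other effectors included genes that fell and genes that rose. With isotype 2 of 7 tested rose and 5 fell, against 35.3% and 36.1% of all genes, and under anti-LAIR-1 1 of 8 rose and 4 fell, against 36.4% and 36.3%. Samd9l, which restricts poxviruses and restrains cell growth, was at 47.2, 52.5 and 36.0 CPM in unstimulated isotype cells and at 65.0, 65.4 and 55.0 CPM in unstimulated anti-LAIR-1 cells. Under anti-CD3, Samd9l was at 7.25, 2.96 and 4.34 CPM with isotype and at 10.9, 11.5 and 13.1 CPM with anti-LAIR-1. In both states the anti-LAIR-1 libraries were all above the isotype libraries, and stimulated libraries were far below unstimulated ones. Anti-CD3 gave -3.33 (SE 0.25, adjusted p 3.7e-11) with isotype and -2.40 (SE 0.14, adjusted p 1.5e-11) under anti-LAIR-1. Anti-LAIR-1 in activated cells gave 1.33 (SE 0.27, adjusted p 0.00624), higher in 3 of 3 mice, with an adjusted p of 0.0526 with DESeq2 and a block for the mouse. Without anti-CD3 the anti-LAIR-1 value was 0.43 (adjusted p 0.997). The interaction was 0.91 (adjusted p 0.131) and was called without anti-CD3 isotype library 1 (adjusted p 0.0416).

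Rtp4, a chaperone of receptors that also binds viral RNA, was the member with the largest anti-LAIR-1 effect among those called in activated cells. It was at 1.51, 1.27 and 2.73 CPM with anti-CD3 and isotype and at 4.98, 6.92 and 7.62 CPM with anti-CD3 and anti-LAIR-1. In unstimulated cells, Rtp4 was at 5.29, 2.44 and 0.538 CPM with isotype and at 5.53, 8.21 and 6.94 CPM with anti-LAIR-1. The anti-LAIR-1 libraries were above the isotype libraries in both states. The anti-LAIR-1 log2 fold change was 1.71 (SE 0.36, adjusted p 0.00744) in activated cells, a fold of 3.28, and was called under each of the 11 alternatives that gave it an adjusted p. DESeq2 and the filter of at least 10 counts gave it none. In resting cells it was 1.17 (adjusted p 0.997), with an unadjusted p of 0.0186. Over 13 alternatives this value ran from 0.79 to 2.08 and was never called. The unstimulated isotype libraries held 16, 6 and 1 counts of Rtp4. Anti-CD3 under anti-LAIR-1 gave -0.12 (adjusted p 0.723), and with isotype Rtp4 had too few counts for a test. Xaf1, an antagonist of the apoptosis inhibitor XIAP, was at 7.27, 5.29 and 8.07 CPM in unstimulated isotype cells and at 6.36, 7.68 and 6.41 CPM in unstimulated anti-LAIR-1 cells. Under anti-CD3, Xaf1 was at 0.302, 0.846 and 0.964 CPM with isotype and at 1.48, 2.36 and 2.33 CPM with anti-LAIR-1. Stimulated libraries were below all unstimulated ones, and the anti-LAIR-1 libraries above the isotype ones among them. Anti-CD3 gave -3.14 (SE 0.48, adjusted p 3.8e-06) and -1.76 (SE 0.34, adjusted p 1.1e-04), and Xaf1 was too low for a test of anti-LAIR-1 in activated cells.

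Sp100, a scaffold of PML nuclear bodies, was at 13.9, 35.4 and 18.8 CPM in unstimulated isotype cells and at 22.1, 20.1 and 22.4 CPM in unstimulated anti-LAIR-1 cells. Under anti-CD3, Sp100 was at 0.906, 1.69 and 2.73 CPM with isotype and at 3.37, 3.71 and 2.54 CPM with anti-LAIR-1, so every stimulated library was below every unstimulated one. The log2 fold changes were -3.56 (SE 0.38, adjusted p 1.7e-08) and -2.73 (SE 0.23, adjusted p 2.3e-09), and the anti-LAIR-1 effect in activated cells was 0.75 (adjusted p 0.337). Bst2, or tetherin, which holds budding virions at the cell surface, moved the other way. It was at 3.30, 7.74 and 9.15 CPM in unstimulated isotype cells and at 5.26, 6.09 and 6.41 CPM in unstimulated anti-LAIR-1 cells. Under anti-CD3, Bst2 was at 15.7, 19.3 and 16.7 CPM with isotype and at 16.2, 17.4 and 17.3 CPM with anti-LAIR-1. All stimulated libraries were above all unstimulated ones, and the stimulated groups overlap. Anti-CD3 gave 1.40 (SE 0.29, adjusted p 2.0e-04) and 1.50 (SE 0.21, adjusted p 3.5e-06), and anti-LAIR-1 in activated cells gave -0.04 (adjusted p 0.940).

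Isg20, an exonuclease that degrades RNA, was at 2.64, 2.85 and 1.61 CPM in unstimulated isotype cells and at 3.87, 4.50 and 4.81 CPM in unstimulated anti-LAIR-1 cells. Under anti-CD3, Isg20 was at 4.53, 5.08 and 8.51 CPM with isotype and at 5.12, 4.39 and 6.98 CPM with anti-LAIR-1. With isotype the stimulated libraries were all higher, with library 3 well above the other stimulated ones, and under anti-LAIR-1 the groups overlap. Anti-CD3 gave 1.31 (SE 0.43, adjusted p 0.00917) with isotype, an adjusted p that was 0.0943 without anti-CD3 isotype library 3, and 0.0524 with DESeq2 and 0.133 with DESeq2 and a block for the mouse. Under anti-LAIR-1 the value was 0.29 (adjusted p 0.403). Adar, which edits adenosine to inosine in double-stranded RNA, fell from means of 75.7 ± 2.63 CPM and 74.8 ± 8.91 CPM (SD, n = 3) to 53.2 ± 4.22 CPM and 58.4 ± 1.73 CPM, with -0.54 (adjusted p 4.6e-04) with isotype and -0.36 (adjusted p 0.00604) under anti-LAIR-1. The latter adjusted p was 0.114 with DESeq2 and a block for the mouse. Ifi35, a leucine zipper protein that pairs with NMI, had -0.48 (adjusted p 0.00601) with isotype and -0.23 (adjusted p 0.105) under anti-LAIR-1. With isotype its adjusted p was 0.117 with DESeq2 and a block for the mouse. Rsad2 (viperin), its neighbour Cmpk2 and Ifi44 were too low to test, Ifi44 with 1 count in the 12 libraries.

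**Figure D3:**
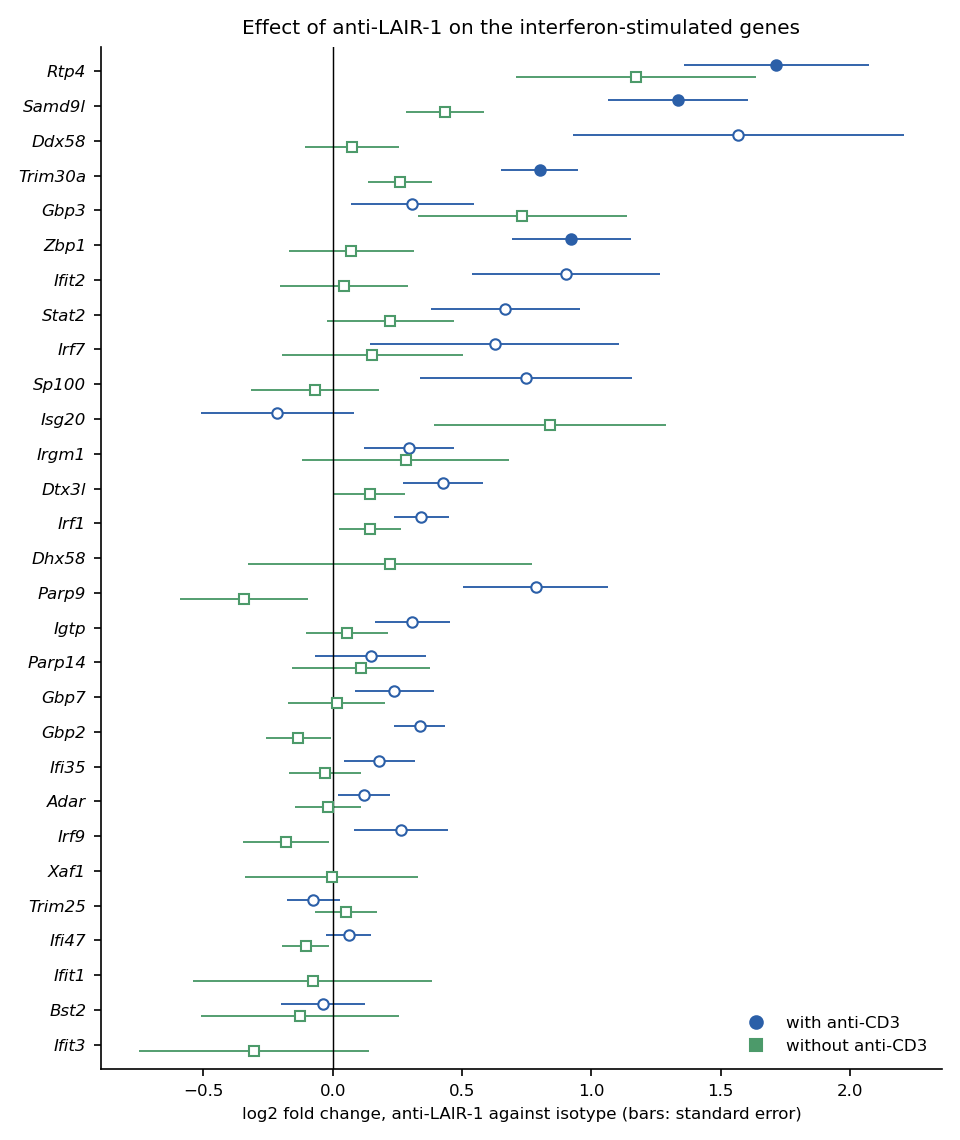
Log2 fold change of anti-LAIR-1 against isotype (x axis) for each gene tested (y axis), with anti-CD3 as circles and without it as squares, bars showing the standard error, and filled symbols an edgeR adjusted p under 0.05. The 4 filled symbols are Rtp4, Samd9l, Zbp1 and Trim30a with anti-CD3, and no symbol is filled without it.

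Ligands, receptors and regulators of the pathway were read from a list of 37 genes, 33 of them in the table. With anti-CD3 and isotype 8 of 30 tested rose and 14 fell, where 35.3% of all genes rose and 36.1% fell. Under anti-LAIR-1 9 of 30 rose and 15 fell, against 36.4% and 36.3% of all genes. Ifng, the ligand of the type II receptor, was at 0, 0 and 0 CPM in unstimulated isotype cells and at 0.277, 0 and 0.267 CPM in unstimulated anti-LAIR-1 cells. Under anti-CD3, Ifng was at 38.6, 38.1 and 38.4 CPM with isotype and at 16.8, 15.2 and 9.73 CPM with anti-LAIR-1. It was thus at least 93.9-fold higher with anti-CD3 and isotype than a floor of 3 counts over the unstimulated group, and lower with anti-LAIR-1 in each of 3 mice, with a log2 fold change of -1.44 (SE 0.17, adjusted p 4.1e-05). Ifngr1, a subunit of the interferon gamma receptor, went from means of 463 ± 35.0 CPM and 475 ± 24.7 CPM in the unstimulated isotype and anti-LAIR-1 groups to 34.8 ± 8.88 CPM and 55.5 ± 11.4 CPM with anti-CD3, with log2 fold changes of -3.78 (adjusted p 7.1e-17) and -3.11 (adjusted p 1.2e-14). Ifnar1 went from 60.6 ± 10.1 CPM and 57.2 ± 6.44 CPM to 15.5 ± 1.15 CPM and 24.6 ± 4.93 CPM, -1.98 (adjusted p 3.0e-10) and -1.25 (adjusted p 3.1e-07). Irf8, a factor of the IRF family, rose from means of 2.29 ± 0.841 CPM and 2.70 ± 2.28 CPM to 369.8 ± 57.2 CPM and 255 ± 50.1 CPM. For anti-LAIR-1 in activated cells 5 of 30 were higher and 2 lower, against 3.9% and 1.86% of all genes. Among the 5 were Ifnar1 and Ifngr1. With 1 library left out, Ifnar1 was called in 1 and Ifngr1 in 4 of 6 fits. In resting cells edgeR and DESeq2 called 0 of 28, 1 of them having an unadjusted p under 0.05. Lair1 itself was close to the limit of counting, with means of 1.48 ± 1.30 CPM, 0.805 ± 0.253 CPM, 1.02 ± 0.441 CPM and 0.202 ± 0.178 CPM in the 4 groups, and was not tested.

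A wider list of 88 other ISGs, 78 of them in the table, also held more genes that fell than rose. With anti-CD3 and isotype 10 of 60 tested rose and 42 fell, against 35.3% and 36.1% of all genes, with a median log2 fold change of -1.35 against -0.03 over all genes. Under anti-LAIR-1 11 of 62 rose and 41 fell, against 36.4% and 36.3%, with a median of -0.98 against -0.04. Among those that fell were Oas1c, a synthetase relative of Oas1a (-4.07 with isotype), and Epsti1 (-3.56), while Ly6a, the stem cell antigen Sca-1 (3.69), and the chemokine gene Cxcl10 (3.37) rose. For anti-LAIR-1 in activated cells 14 of 59 were higher and 1 lower, against 3.9% and 1.86%, with a median of 0.42 against 0.00. Epsti1 had the highest value of the 14, 1.14 (adjusted p 0.00111). The lower gene was Gbp5, with -1.36 (adjusted p 0.0375), and it was called in 0 of 6 fits with 1 library left out. Gbp5 was low, with 0 counts in unstimulated isotype cells and a mean of 4.99 CPM with anti-CD3 and isotype. With all 12 libraries in 1 fit its adjusted p was 0.0564. In resting cells 0 of 59 passed by edgeR or DESeq2 and 0 had an unadjusted p under 0.05. The interaction passed for 6 of 65 genes, all with positive values, against 1.82% positive and 0.249% negative over all genes.

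All 41 genes were found in the GENCODE M21 annotation of the mm10 genome on the chromosome that the table gives. Chromosome 11 holds 8 of them, and chromosomes 3, 5 and 16 hold 5 each. Several are close neighbours. Ifit2, Ifit3 and Ifit1 lie in a row on chromosome 19, with 7111 and 52139 bases between them. All 3 fell under anti-LAIR-1, where 36.3% of all genes fell, although Ifit1 was called in 7 of 13 alternatives. With isotype, Ifit1 and Ifit3 had too few counts for a test. Gbp7, Gbp3 and Gbp2 lie in a row on chromosome 3, with 9876 and 47392 bases between them, but Gbp2 alone rose in both settings. Dtx3l and Parp9 run in opposite directions on chromosome 16 and share 682 bases at their starts, and both fell with anti-CD3. Over all genes, 35.3% rose and 36.1% fell with isotype, and 36.4% rose and 36.3% fell under anti-LAIR-1. Oas2 and Oas3, Oasl2 and Oasl1, and Rsad2 and Cmpk2 are further pairs, none of which was counted enough to test.

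Promoters of 300 bases, 250 before and 50 after each start, were taken from RefSeq on build GRCm38.p6 for 33 of the 41 genes, which have 43 of them. Dhx58, Zbp1, Oas2, Usp18, Mx1, Parp9, Parp14 and Rtp4 had no entry in the promoter set used. The letters GAAANNGAA, 9 letters of the ISRE core, were found on either strand in 21 of the 43, or 48.8%, against 8.56% of 32851 promoters of all genes. By gene that is 20 of 33, or 60.6%, against 9.76% of 27025 genes. The GAS letters TTCNNNGAA were found in 9 of the 43, or 20.9%, against 8.3% of all promoters, and the letters of both motifs overlapped in 1 promoter. Among the 33 genes with a promoter, the ISRE letters were present for 4 of the 6 that rose with anti-CD3 and isotype, 6 of the 14 that fell, both that were tested and not called (Gbp3 and Gbp7), and 8 of the 11 that were not tested there. Those 11 include Ifit1 and Ifit3, which fell under anti-LAIR-1. The GAS letters were present for 3 of 6, 4 of 14, 1 of 2 and 1 of 11 of the same genes. A match describes the letters in the window and says nothing of binding. Genes with an ISRE match thus lie among those that rose, those that fell, those not called and those not tested with isotype. The promoters of Gbp2 and Irgm1, which rose with anti-CD3, and of Trim30a and Samd9l, which fell and were higher with anti-LAIR-1, are given to show this, together with that of Isg15, which was barely counted. Each is written 5′ to 3′ on the strand of the gene with the ISRE letters, or their reverse complement, in capitals. The Gbp2 promoter is chr3:142620413-142620712 on the plus strand, Irgm1 is chr11:48871371-48871670 on the minus strand, Trim30a is chr7:104465144-104465443 on the minus strand, Samd9l is chr6:3399522-3399821 on the minus strand and Isg15 is chr4:156200769-156201068 on the minus strand.
Gbp2: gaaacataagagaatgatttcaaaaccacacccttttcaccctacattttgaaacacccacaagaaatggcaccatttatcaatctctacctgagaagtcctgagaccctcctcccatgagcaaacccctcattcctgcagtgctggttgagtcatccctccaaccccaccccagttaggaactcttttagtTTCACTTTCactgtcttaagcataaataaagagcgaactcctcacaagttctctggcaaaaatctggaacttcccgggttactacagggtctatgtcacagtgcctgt
Irgm1: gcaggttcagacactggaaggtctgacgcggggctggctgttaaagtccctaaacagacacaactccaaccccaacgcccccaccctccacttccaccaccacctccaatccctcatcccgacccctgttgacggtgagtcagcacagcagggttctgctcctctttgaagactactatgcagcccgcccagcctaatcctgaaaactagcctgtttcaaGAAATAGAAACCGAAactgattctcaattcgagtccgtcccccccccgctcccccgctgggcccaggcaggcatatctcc
Trim30a: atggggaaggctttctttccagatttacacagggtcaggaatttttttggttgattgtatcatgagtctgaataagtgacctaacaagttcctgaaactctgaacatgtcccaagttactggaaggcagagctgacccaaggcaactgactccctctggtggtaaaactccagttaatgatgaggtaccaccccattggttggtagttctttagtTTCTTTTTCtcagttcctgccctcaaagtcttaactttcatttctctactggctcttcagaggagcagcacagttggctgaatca
Samd9l: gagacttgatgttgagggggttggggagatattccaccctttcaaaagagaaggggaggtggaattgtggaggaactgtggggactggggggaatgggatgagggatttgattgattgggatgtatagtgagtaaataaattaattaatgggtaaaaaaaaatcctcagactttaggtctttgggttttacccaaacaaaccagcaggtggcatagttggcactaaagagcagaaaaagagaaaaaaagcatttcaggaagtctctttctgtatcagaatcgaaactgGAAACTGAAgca
Isg15: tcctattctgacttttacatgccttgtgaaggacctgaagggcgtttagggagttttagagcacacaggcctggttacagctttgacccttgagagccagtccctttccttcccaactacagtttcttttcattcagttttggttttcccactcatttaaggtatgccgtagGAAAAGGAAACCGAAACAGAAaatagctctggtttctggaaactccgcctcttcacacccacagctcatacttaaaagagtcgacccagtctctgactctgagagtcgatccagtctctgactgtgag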

How the data were processed

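The table deposited by the authors holds raw read counts per gene symbol from CEL-seq. Alignment was to mm10 transcripts with BWA MEM, and a read without a unique best position was not counted. Whether reads sharing a molecular identifier were collapsed is not stated, so floors cover counting error only. All 12 columns were matched to the labels, with 0 left over.

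In R 4.3.3, edgeR 4.0.16 was fitted on the whole table for each comparison of 2 groups (6 libraries) and for the interaction (12 libraries), with TMM scaling, filterByExpr, and a two-sided quasi-likelihood F-test at an adjusted p under 0.05. The standard error is the absolute log2 fold change divided by the square root of F. The p-values measure spread between the libraries of a group, in which mouse and well cannot be told apart. An exact permutation of 3 against 3 libraries cannot go below 0.1. CPM values use TMM factors over the 12 libraries. DESeq2 1.42.0, the paper's tool, served as an alternative. The other alternatives were DESeq2 size factors in edgeR, a minimum of 10 counts per library, no filter at all, a block for the mouse in either tool, all 12 libraries in 1 fit, and leaving out each library in turn. Library totals alone were added after the data had been seen.

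The mouse numbers in the sample labels pair the libraries. Over 6400 genes with a mean of at least 50 counts, deviations from the group mean correlated with a mean r of 0.0674 over 18 pairs from the same mouse. The reported fits have no block because the study's methods state none, and the block is an alternative.

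The 41 genes and all other lists were chosen with earlier results of these data known. Values per library are given for up to 5 called genes with the highest and 5 with the lowest log2 fold change in each comparison and for well-known members. The lists of regulators and of other ISGs contribute up to 4 called genes per comparison, plus Ifng, Ifnar1, Ifngr1 and Lair1. Of the lists, 1 naive CD8 T cell marker and 1 regulator are not reported here.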

Additional observations from a re-analysis of the deposited data

Results flagged for a closer look

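For 7 interferon pathway genes outside the 41 that are described here, activated and resting cells differed in their anti-LAIR-1 effect by the interaction test of edgeR on the 12 libraries, and all 7 values were positive, where 1.82% of all genes were called with a positive and 0.249% with a negative interaction. Of 9 naive CD8 T cell markers, 5 also had a positive interaction by the same test, Cd3e, Cd3g, Lef1, Tcf7 and Il7r. Their part in these results was not tested. Epsti1 had an interaction of 1.12 (SE 0.21, adjusted p 0.00277), Slfn1, a schlafen gene, 0.83 (SE 0.16, adjusted p 0.00277), and Shisa5 0.74 (SE 0.10, adjusted p 8.8e-05). These 3 passed without each library in turn. In activated cells Epsti1 was at 10.3, 8.04 and 10.6 CPM with isotype and at 18.4, 23.5 and 22.6 CPM with anti-LAIR-1, while in unstimulated cells it was at 106, 125 and 103 CPM and 116, 127 and 98.0 CPM. The anti-LAIR-1 libraries were the higher ones with anti-CD3, and the groups overlap without it. The other 4 missed the threshold when some single libraries were left out. Lgals9, which encodes galectin-9, had 0.78 (SE 0.18, adjusted p 0.0186), with an adjusted p of 0.0669 without unstimulated isotype library 1, 0.0607 without unstimulated anti-LAIR-1 library 3, 0.0638 without anti-CD3 isotype library 1 and 0.0747 without anti-CD3 anti-LAIR-1 library 3. Pyhin1 had 0.82 (SE 0.20, adjusted p 0.0246), with an adjusted p of 0.0556 without unstimulated isotype library 2, 0.0553 without unstimulated anti-LAIR-1 library 2, 0.0607 without unstimulated anti-LAIR-1 library 3, 0.0923 without anti-CD3 isotype library 2 and 0.0956 without anti-CD3 anti-LAIR-1 library 3. Ifi27l2a had 0.82 (SE 0.21, adjusted p 0.0392), with an adjusted p of 0.122 without unstimulated isotype library 1, 0.0762 without unstimulated isotype library 3, 0.0680 without unstimulated anti-LAIR-1 library 1, 0.117 without unstimulated anti-LAIR-1 library 3, 0.0827 without anti-CD3 isotype library 1, 0.121 without anti-CD3 isotype library 2, 0.0645 without anti-CD3 isotype library 3, 0.0910 without anti-CD3 anti-LAIR-1 library 2 and 0.100 without anti-CD3 anti-LAIR-1 library 3, and 0.0627 with DESeq2 and a block for the mouse. Samhd1, a dNTP hydrolase that restricts retroviruses, had 0.56 (SE 0.15, adjusted p 0.0494), with an adjusted p of 0.0668 without unstimulated isotype library 1, 0.142 without unstimulated isotype library 2, 0.119 without unstimulated anti-LAIR-1 library 1, 0.0690 without unstimulated anti-LAIR-1 library 2, 0.0933 without unstimulated anti-LAIR-1 library 3, 0.155 without anti-CD3 isotype library 1, 0.167 without anti-CD3 isotype library 2, 0.0587 without anti-CD3 anti-LAIR-1 library 1, 0.138 without anti-CD3 anti-LAIR-1 library 2 and 0.0956 without anti-CD3 anti-LAIR-1 library 3.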

How the results depend on the processing

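Alternatives were followed for those of the 41 genes with an unadjusted p under 0.05 in a comparison, and for some well-known members. Values without an adjusted p were left out. Of the 1023 values, 951 kept their direction and their side of the threshold, 49 lost a call, 21 gained one and 2 changed sign. The cause was not tested. The sign changed for Bst2 under anti-LAIR-1 in activated cells, which ran from -0.089 to 0.048 when libraries were left out and was never called.

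With no filter on low counts, anti-LAIR-1 in activated cells gave 10 of the 41 genes higher in place of 4, and 261 of all genes lower in place of 164. In resting cells all genes gave 3 higher and 2 lower in place of 0. The interaction gave 1 of the 41, and 54 of all genes negative in place of 23. With a block for the mouse, edgeR called 7 of the 41 genes higher under anti-LAIR-1 in activated cells. With the same block DESeq2 called 1, with 148 of all genes higher in place of 343 and 76 lower, and 11 of the 41 lower with anti-CD3 under anti-LAIR-1 in place of 17. Apart from these and the calls named in the report, the block changed no call of the 41 genes that is printed. With all 12 libraries in 1 fit, 99 of all genes were lower under anti-LAIR-1 in activated cells.

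Leaving out libraries in turn gave, for anti-LAIR-1 in activated cells, 3 to 7 of the 41 genes higher, 211 to 299 of all genes higher and 82 to 142 lower. In resting cells it gave 0 to 1 of all genes lower. For the interaction it gave 0 to 1 of the 41, and 94 to 161 of all genes positive and 9 to 25 negative. Library totals alone shifted the median of all genes by -0.11 for anti-CD3 under anti-LAIR-1.

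Among uncalled values of other genes, Nlrc5 changed sign with no filter, to 0.020 for anti-CD3 under anti-LAIR-1, where leaving out libraries gave -0.18 to 0.030. Its range was -0.19 to 0.036 for anti-LAIR-1 in activated cells and -0.060 to 0.23 for the interaction. The interaction of Psme1 was -0.0012 with no filter and -0.031 to 0.080 without single libraries, and that of Psme2 was -0.10 to 0.033.

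Too few counts kept 12 genes out of every test and 5 others out of some, and whether depth or low expression was the limit was not tested.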

Other observations

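Genes of antigen processing, which interferon gamma also induces, likewise included some that fell and some that rose. They belong to the list of other ISGs and were singled out after their values were seen. The immunoproteasome subunit genes Psmb8, Psmb9 and Psmb10 fell with anti-CD3 and isotype, by log2 fold changes of -1.36 (adjusted p 5.6e-10), -1.21 (adjusted p 6.3e-06) and -1.73 (adjusted p 2.3e-08) in edgeR. Psmb8 was at 164, 162 and 149 CPM in unstimulated isotype cells and at 57.1, 56.9 and 74.0 CPM with anti-CD3, without overlap. The peptide transporter genes Tap1 and Tap2 also fell, by -1.14 (adjusted p 2.9e-09) and -1.34 (adjusted p 5.7e-07). The proteasome activator genes rose, Psme1 by 0.52 (adjusted p 2.5e-05) and Psme2 by 0.96 (adjusted p 1.6e-08), the latter from 132, 109 and 125 CPM to 244, 231 and 258 CPM. All 7 kept these directions and calls for anti-CD3 under anti-LAIR-1. For anti-LAIR-1 in activated cells Psmb8 and Tap2 were called higher, where 3.9% of all genes were. With 1 library left out, Psmb8 was called in 2 and Tap2 in 3 of 6 fits. Psmb9, Psmb10, Tap1, Psme1 and Psme2 were called in 0 of these fits. The interaction of Psmb8 was not called in the reported fit, but was in 4 of 7 other settings. Over all genes, 35.3% rose and 36.1% fell with isotype, and 36.4% rose and 36.3% fell under anti-LAIR-1. Nlrc5, the activator of class I genes, had -0.18 (adjusted p 0.355) with isotype and -0.07 (adjusted p 0.660) under anti-LAIR-1.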
